A study of Rattus norvegicus with 23 samples.

Results

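The LSEC fraction of the 3DHLK model was compared with the KC fraction of the same model at day 12, across all genes of the array. The members were the 3 arrays labelled LSEC and the 2 arrays labelled KC from this model, 5 of the 23 arrays of the study, and 14217 genes were compared, each through 1 probe set, that of the highest average signal on the 23 arrays. The 3DHLK model holds rat hepatocytes (H) under a detachable chitosan and hyaluronic acid membrane that stands in for the Space of Disse, with LSECs (L) and KCs (K) seeded on top. The hepatocytes and LSECs came from female Lewis rats, the KCs were bought as cryopreserved rat cells. The LSEC fraction was collected with magnetic beads carrying the SE-1 antibody and the KC fraction with beads carrying an antibody to CD163, in that sequence, from the same kind of culture. Only 2 KC samples passed the study's RNA quality check. Other groups used here as points of comparison were the hepatocytes of the 3DHLK model, the LSEC fraction of the 3DHL model (hepatocytes and LSECs only), hepatocyte monolayers (HM), all at day 12, and KCs at day 3, which the labels place before the 3D culture. For 1 marker, hepatocytes of the 3DHL model and of collagen sandwiches, also at day 12, are given too. The values are log2 expression values from RMA, a method that removes background, equalizes the distributions of the arrays and summarizes each probe set.

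LSECs are the fenestrated endothelial cells of the liver sinusoids. They clear waste macromolecules from blood through scavenger receptors such as stabilins and the Fc receptor Fcgr2b. KCs, the macrophages that reside in the liver, sit in the same sinusoids, depend on the receptor Csf1r and take up microbes and iron-rich old red cells. Hepatocytes carry out most of the metabolism of the liver, including urea synthesis, bile acid synthesis, drug oxidation and the secretion of plasma proteins, and neither LSECs nor KCs are known for these tasks.

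The defining markers did not follow the labels, and this touches every comparison below. Adgre1, which encodes the macrophage antigen F4/80, had values of 4.68, 4.44 and 4.70 in the LSEC fraction, against 4.81 and 5.95 in the KC fraction. Csf1r, the receptor for macrophage colony-stimulating factor, had 5.10, 5.29 and 5.63 in the LSEC fraction, against 5.33 and 5.38 in the KC fraction. In day 3 KCs these genes averaged 12.91 and 12.48, and in HM 4.55 and 5.67, so the KC fraction lay near the hepatocyte monolayers. Cd163, the antigen of the KC beads, had 6.72, 6.64 and 7.22 in the LSEC fraction and 7.03 and 7.26 in the KC fraction, while day 3 KCs averaged 10.63. The mean over all 25 macrophage markers was 6.81 to 7.01 in LSEC arrays and 6.75 to 6.99 in KC arrays, against 11.74 to 12.13 in day 3 KCs and 6.56 to 7.08 in HM. In the hepatocytes of the same model this mean was 7.47 to 7.80, above both fractions. Those hepatocytes also lay above both fractions for Cd163 (8.34, 8.32 and 8.46) and Csf1r (6.51, 6.36 and 6.75). For Adgre1 they had 5.59, 5.89 and 6.42, which overlapped the KC fraction.

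Endothelial markers were also low in both fractions. Stab2, a scavenger receptor of sinusoidal endothelium, had 5.94, 5.96 and 6.03 in the LSEC fraction, against 6.28 and 6.44 in the KC fraction. HM averaged 5.77 for Stab2. Pecam1, the adhesion molecule CD31, averaged 6.19 ± 0.26 in the LSEC fraction (SD, n = 3) and 6.82 ± 0.16 in the KC fraction (SD, n = 2), with 5.94 in HM, and its call as lower was lost without LSEC array 1 or 3 or either KC array (highest adjusted p 0.224). The SE-1 antigen of the LSEC beads is generally taken to be Fcgr2b. It had 7.35, 7.38 and 7.36 in the LSEC fraction, against 8.16 and 7.91 in the KC fraction, both above the 4.80 of HM. The hepatocytes of the same model had 7.26, 7.60 and 7.45, so the LSEC fraction did not lie above them. Hepatocytes of the 3DHL model had 6.83, 6.80 and 6.60. Hepatocytes in collagen sandwiches had 6.64, 7.06 and 6.85, so HM was the lowest of the hepatocyte groups. The LSEC fraction of the 3DHL model had 6.46, 6.42 and 6.33. Hepatocyte genes were high throughout. Alb, serum albumin, had 14.54, 14.52 and 14.52 in the LSEC fraction and 14.33 and 14.44 in the KC fraction. The mean over 29 hepatocyte markers was 12.84 to 12.89 in LSEC arrays and 11.97 to 12.08 in KC arrays, against 12.48 to 12.49 in HM. Its lowest value on a day 3 KC array was 7.31. The fractions are therefore named here by their labels, with no claim on the cells they held. In such bulk RNA, fewer cells of a type and less RNA per cell cannot be told apart.

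**Figure D1:**
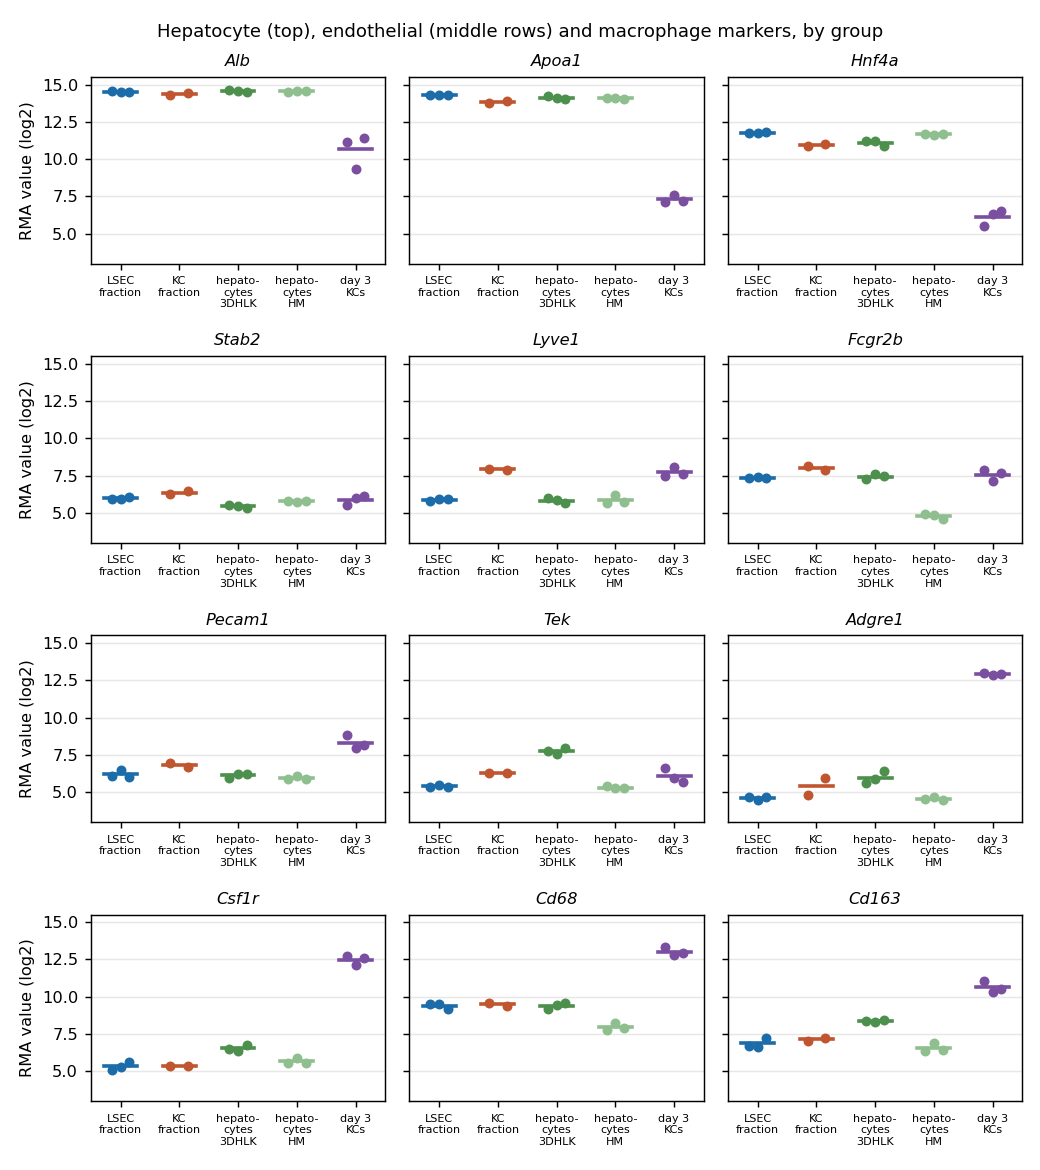
Deposited log2 values of 12 defining markers, 1 point per array with a line at the group mean, for the LSEC fraction, the KC fraction and the hepatocytes of the 3DHLK model, HM hepatocytes and day 3 KCs. Alb, Apoa1 and Hnf4a are lower in day 3 KCs than in every other group shown, though Alb still reads 11.18, 9.33 and 11.45 there. Csf1r lies at 5.10 to 5.63 in both fractions against a mean of 12.48 in day 3 KCs.

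The 3 LSEC arrays correlated with each other at 0.993 to 0.994 over all probe sets, the 2 KC arrays at 0.988, and LSEC with KC arrays at 0.969 to 0.980. The labels do not say that replicates came from separate animals or cultures, so each p-value is set against a spread that may be technical only. RNA measures also moved with the fractions. The difference between the 3' and 5' probe sets of hexokinase was 0.37 to 0.68 in the LSEC fraction and 0.15 to 0.25 in the KC fraction, and 5S rRNA read 7.41 to 7.62 in the LSEC fraction and 7.96 to 8.17 in the KC fraction. The same difference for beta-actin overlapped, at 0.82 to 0.84 in the LSEC fraction and 0.80 to 0.94 in the KC fraction. For GAPDH it was -0.277 to -0.184 in the LSEC fraction and -0.180 to -0.156 in the KC fraction. These ranges nearly touched, with the KC fraction on the higher side, opposite to hexokinase. KC array 2 also had the narrowest spread of values of the 5 arrays. Its interquartile range was 2.71, against 2.94 on KC array 1, and those of the LSEC arrays were 2.94 to 3.08. Lower quartiles were 5.99 to 6.05 on LSEC arrays and 6.06 and 6.16 on KC arrays. The part of these differences in the results was not tested.

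Of 14217 genes, 1384 were higher in the LSEC fraction and 761 were lower at a Benjamini-Hochberg adjusted p under 0.05 (limma), 9.73% and 5.35% of genes, and 3792 had an unadjusted p under 0.05. The median difference of all genes was -0.02 (log2), and 64.5% of the called genes were higher in the LSEC fraction. This share depended on the scaling, with 78.9% after centring on housekeeping genes and 51.5% after a further quantile normalization. The higher genes also differed by more. A difference over 1 log2 unit was found for 450 higher and 147 lower genes, and a difference over 2 for 77 higher and 11 lower genes. Without KC array 2 there were 804 higher and 458 lower genes, and without KC array 1 there were 1166 and 473. Without LSEC array 2 or 3 the lower genes numbered 496 or 506. The first LSEC array lay nearest to the KC mean for 62.8% of the lower genes and 47.5% of the higher genes, against 36.5% of all genes.

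The genes with the largest higher values in the LSEC fraction included genes of hepatocyte metabolism and of plasma proteins. Sult2a2, a sulfotransferase that conjugates hydroxysteroids and bile acids, had 11.31, 11.46 and 11.65 in the LSEC fraction, against 7.04 and 7.33 in the KC fraction. The difference was 4.29 ± 0.22 (log2, SE), 19.5-fold, with an adjusted p of 1.91e-11. Every LSEC array was over 3 units above both KC arrays. Rbp7, a cellular retinol-binding protein, had 12.94, 13.21 and 13.21 in the LSEC fraction, against 8.98 and 9.10 in the KC fraction, 16.9-fold. Rbp7 averaged 9.50 in the hepatocytes of the same model and 12.56 in the LSEC fraction of the 3DHL model, so that both LSEC fractions lay above that hepatocyte fraction. Hrg, the plasma histidine-rich glycoprotein, had 11.50, 11.71 and 11.87 in the LSEC fraction, against 7.86 and 7.94 in the KC fraction, 13.8-fold. Urad, an enzyme of uric acid breakdown, had 10.32, 10.78 and 10.53 in the LSEC fraction, against 7.09 and 6.50 in the KC fraction, 13.4-fold. These genes were chosen for their size and for arrays that did not overlap.

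The promoter of Sult2a2, the gene with the largest difference, is shown because it holds letters of the motif of the hepatocyte factor HNF1, and that of Havcr1 because the same letters occur in a gene that was lower in the LSEC fraction. The motif searched was GTTAATNAT on both strands in the 250 bases before the start of transcription (RefSeq, GRCr8), and the match is in capitals. Sult2a2 lies at chr1:85104533-85104782 on the minus strand and Havcr1 at chr10:31629528-31629777 on the plus strand.
Sult2a2: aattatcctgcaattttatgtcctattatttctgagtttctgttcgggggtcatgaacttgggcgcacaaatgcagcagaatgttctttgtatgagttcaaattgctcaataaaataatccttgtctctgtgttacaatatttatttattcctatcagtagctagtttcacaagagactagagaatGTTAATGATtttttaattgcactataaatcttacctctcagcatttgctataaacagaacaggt
Havcr1: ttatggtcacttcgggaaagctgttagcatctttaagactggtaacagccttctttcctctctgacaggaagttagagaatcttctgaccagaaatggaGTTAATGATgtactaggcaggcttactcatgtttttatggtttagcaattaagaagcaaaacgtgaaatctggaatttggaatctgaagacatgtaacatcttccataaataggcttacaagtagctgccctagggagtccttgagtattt
The motif was present in 1.12% of the 1163 higher genes with a promoter in the table and in 0.949% of the 632 lower genes, against 0.469% of the 11733 genes tested and 0.67% of all 27457 promoters. Of the 24 genes with the largest differences, 19 had a promoter in the table, among them 10 of the 12 higher ones, of which 1 held the motif. A match describes the letters only.

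**Figure D2:**
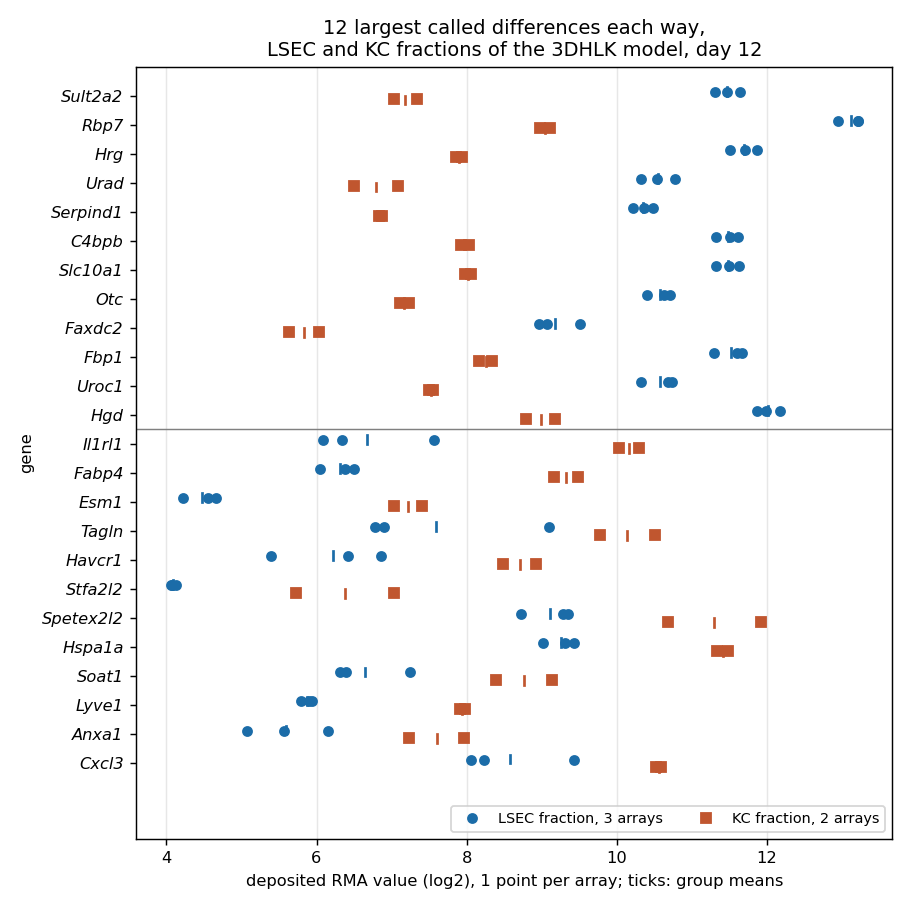
Deposited log2 values on the 3 LSEC arrays and the 2 KC arrays for the 12 largest called differences in each direction, with a tick at each group mean. LSEC arrays lie above KC arrays for Sult2a2 to Hgd and below them for Il1rl1 to Cxcl3, and the first LSEC array of Tagln lies at 9.10, away from 6.78 and 6.90.

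Amino acid breakdown and the urea cycle formed the list with the largest median difference of the 36. Of 54 genes, 45 were higher in the LSEC fraction and 0 were lower, with a median difference of 1.27, against -0.02 over all genes. Otc, which joins ornithine and carbamoyl phosphate in the urea cycle, had 10.41, 10.63 and 10.70 in the LSEC fraction, against 7.11 and 7.23 in the KC fraction, 10.6-fold. Uroc1, the urocanase of histidine breakdown, had 10.32, 10.73 and 10.69 in the LSEC fraction, against 7.55 and 7.50 in the KC fraction. Hgd, which opens the ring of homogentisate in tyrosine breakdown, had 11.87, 11.99 and 12.17 in the LSEC fraction, against 8.79 and 9.18 in the KC fraction. The other urea cycle enzymes were higher too, by 2.74 for Cps1, 2.69 for Arg1, 1.17 for Ass1, 1.14 for Asl and 0.97 for Nags. Enzymes of methionine and methyl-group metabolism were also higher, among them Gnmt (2.96), Mat1a (2.83) and Bhmt (2.80). With 1 array left out, 40 to 45 of the 54 genes stayed higher.

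Drug-metabolizing enzymes were higher in part. Of 38 cytochrome P450 genes of families 1 to 4, 19 were higher and 2 were lower (median 0.60), and of 41 conjugation enzymes 21 were higher and 1 was lower (median 0.57). Cyp2a1, a steroid hydroxylase, had 9.87, 10.41 and 10.03 in the LSEC fraction, against 7.10 and 7.08 in the KC fraction, 8.06-fold. Members of the Cyp3a family, monooxygenases of steroids and many drugs, went in opposite directions. Cyp3a23-3a1 had 12.10, 12.18 and 12.42 in the LSEC fraction, against 8.96 and 10.03 in the KC fraction, a difference of 2.74 ± 0.23. Cyp3a9 had 8.97, 8.69 and 8.54 in the LSEC fraction, against 10.53 and 10.70 in the KC fraction, a difference of -1.88 ± 0.19 with an adjusted p of 2.16e-07. Cyp4a3, a fatty acid hydroxylase, was higher by 2.53. Cyp1a1, the main target of the aryl hydrocarbon receptor, had 9.54, 8.21 and 9.31 in the LSEC fraction, against 10.38 and 10.79 in the KC fraction, and its call was lost without KC array 2 (adjusted p = 0.056). Nqo1, a quinone reductase, had 9.47, 9.22 and 9.28 in the LSEC fraction, against 10.34 and 10.35 in the KC fraction, and it was the only conjugation-list gene called lower. Sult2a6, a close relative of Sult2a2, was higher by 2.10, and the glucuronosyltransferase Ugt2b1 by 2.09. Sult2a and Ugt2b genes are near-identical families, so probe sets may share signal within them.

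The promoters of the opposed Cyp3a pair are shown with the letters of a hepatocyte motif (HNF4, CAAAGTCC) and of AP-1 (TGACTCA), the site of Fos and Jun proteins, in capitals, searched on both strands. Cyp3a23-3a1 lies at chr12:14398804-14399053 and Cyp3a9 at chr12:21960161-21960410, both on the minus strand of GRCr8 (RefSeq).
Cyp3a23-3a1: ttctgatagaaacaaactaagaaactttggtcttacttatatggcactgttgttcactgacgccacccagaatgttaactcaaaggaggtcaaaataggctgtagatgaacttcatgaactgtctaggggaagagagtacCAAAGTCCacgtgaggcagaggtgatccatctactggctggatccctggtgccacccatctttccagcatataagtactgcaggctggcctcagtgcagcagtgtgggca
Cyp3a9: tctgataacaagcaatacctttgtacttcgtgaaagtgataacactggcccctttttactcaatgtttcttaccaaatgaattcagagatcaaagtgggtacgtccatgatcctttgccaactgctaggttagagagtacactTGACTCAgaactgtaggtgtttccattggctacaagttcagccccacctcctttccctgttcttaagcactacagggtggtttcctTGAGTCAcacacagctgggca
The HNF4 letters occurred in 2.58% of the promoters of higher genes and 1.27% of those of lower genes, against 1.21% of the genes tested and 1.17% of all promoters. The AP-1 letters occurred in 3.27% of the promoters of higher genes and 5.54% of those of lower genes, against 3.46% of the genes tested and 3.98% of all promoters. Among the 12 largest higher genes, 10 had a promoter in the table, and 0 of these held the HNF4 letters and 0 the AP-1 letters. These motifs and promoters were chosen after values had been seen.

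Bile acid genes were higher in the LSEC fraction for 13 of 23 members and lower for 0 (median 0.67). Slc10a1, the sodium-dependent bile acid uptake carrier, had 11.32, 11.50 and 11.63 in the LSEC fraction, against 7.98 and 8.05 in the KC fraction. Acox2, the peroxisomal oxidase that shortens the bile acid side chain, had 10.50, 10.44 and 10.51 in the LSEC fraction, against 7.40 and 7.80 in the KC fraction, 7.36-fold. The export pump Abcb11 (1.41), the bile acid receptor Nr1h4 (1.01) and Cyp7a1, the rate-limiting enzyme of bile acid synthesis (0.92), were also higher. Without KC array 1, 8 of the 23 genes were higher. Alcohol, aldehyde and ketone enzymes were higher for 17 of 27 genes and lower for 0 (median 0.64). Hsd17b2, which inactivates estradiol and testosterone, was higher by 2.21, and the alcohol dehydrogenase Adh7 by 1.61. Without KC array 2, 11 of the 27 were higher.

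Cholesterol synthesis was higher in nearly every gene. Of 20 genes, 19 were called higher in the LSEC fraction, 20 of 20 had all LSEC arrays above both KC arrays, and the median difference was 0.93. Over all genes, LSEC arrays lay above KC arrays in 25.1% and below them in 23.9%. Sqle, the squalene epoxidase, had 10.80, 11.09 and 10.89 in the LSEC fraction, against 9.57 and 9.39 in the KC fraction, a difference of 1.45 ± 0.18. Hsd17b7 was higher by 1.40, lanosterol synthase (Lss) by 1.27 and Dhcr7, the enzyme of the last step to cholesterol, by 1.20. Soat1, which esterifies cholesterol and is not in the list, lay the other way, with 7.25, 6.39 and 6.31 in the LSEC fraction, against 9.14 and 8.39 in the KC fraction. Its other probe set differed by -1.30 (adjusted p = 0.00346).

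Lipid synthesis and lipid breakdown genes were both higher. Of 26 lipogenesis and triglyceride genes, 17 were higher and 0 lower (median 0.88), and of 37 genes of fatty acid oxidation and the peroxisome, 27 were higher and 1 lower (median 0.86). Pemt, which makes phosphatidylcholine from phosphatidylethanolamine, had 10.79, 11.06 and 11.16 in the LSEC fraction, against 8.22 and 7.95 in the KC fraction. Pnpla3, a lipid droplet hydrolase, had 10.96, 11.38 and 11.32 in the LSEC fraction, against 8.32 and 8.72 in the KC fraction, and averaged 7.31 in the hepatocytes of the model. Its other probe sets were called higher in 2 of 2 cases. The fatty acid synthase Fasn was higher by 2.28 and the desaturase Fads2 by 2.48. In oxidation, Hao2, a peroxisomal hydroxyacid oxidase, had 8.24, 8.25 and 8.26 in the LSEC fraction, against 6.24 and 5.28 in the KC fraction, and Hacl1, the lyase of peroxisomal alpha-oxidation, was higher by 1.65. The mitochondrial dehydrogenase Acadvl (1.45) and the carnitine transferase Cpt1a (0.70) were higher by less. Crat, carnitine acetyltransferase, was lower by a difference of -0.51 ± 0.15, a call lost without any 1 of 4 arrays (LSEC 2, LSEC 3, KC 1 or KC 2; highest adjusted p 0.169).

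Lipoprotein genes were higher for 11 of 18 members and lower for 0 (median 0.70). Mttp, which loads lipid onto apolipoprotein B, had 11.15, 11.39 and 11.32 in the LSEC fraction, against 8.94 and 9.40 in the KC fraction, and Lcat, the plasma enzyme that esterifies cholesterol, was higher by 1.70. Apoa1, the main protein of high-density lipoprotein, had 14.31, 14.29 and 14.33 in the LSEC fraction, against 13.78 and 13.93 in the KC fraction, a difference of 0.46 ± 0.12 that was not called without KC array 1 (adjusted p = 0.127). Genes of glucose and glycogen metabolism were higher for 11 of 18 members and lower for 1 (median 0.82). Fbp1, the fructose bisphosphatase of gluconeogenesis, had 11.29, 11.66 and 11.60 in the LSEC fraction, against 8.17 and 8.34 in the KC fraction, 9.61-fold. Pck1, the gluconeogenic carboxykinase, had 12.41, 12.41 and 12.58 in the LSEC fraction, against 9.42 and 9.61 in the KC fraction, 7.73-fold. The glucose transporters went apart. Slc2a2, the carrier of hepatocytes, was higher by 0.82, and Slc2a1, the carrier of most other cells, had 10.81, 10.55 and 10.38 in the LSEC fraction, against 11.52 and 11.75 in the KC fraction.

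Among plasma proteins, complement and coagulation genes had the larger share of calls, with 27 of 37 genes higher and 0 lower (median 0.94). Serpind1, heparin cofactor II, had 10.22, 10.36 and 10.49 in the LSEC fraction, against 6.83 and 6.87 in the KC fraction, 11.3-fold. C4bpb, a chain of the complement inhibitor C4b-binding protein, had 11.32, 11.50 and 11.62 in the LSEC fraction, against 7.93 and 8.03 in the KC fraction. Plasminogen (Plg, 2.03), coagulation factor IX (F9, 1.84) and complement C5 (1.74) were also higher, and thrombin (F2) was higher by 0.70. Of 17 acute phase genes, 8 were higher and 0 lower (median 0.54), led by the inter-alpha-trypsin inhibitor chains Itih4 (1.39) and Itih2 (1.30). Ttr, the thyroxine carrier transthyretin, had 14.25, 14.23 and 14.31 in the LSEC fraction, against 13.74 and 13.64 in the KC fraction, and its call (adjusted p = 0.0397) was lost without any 1 of the 5 arrays (highest adjusted p 0.225). Of the 29 hepatocyte markers, 19 were higher and 1 was lower, led by Pck1 and the fatty acid-binding protein Fabp1 (2.81), which averaged 10.98 in the hepatocytes of the model. The lower one was Krt8, an epithelial keratin, with 13.20, 13.01 and 12.94 in the LSEC fraction, against 13.73 and 13.63 in the KC fraction.

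Regulators of liver genes were higher for 11 of 20 transcription factors and lower for 0 (median 0.72). Rxra, the retinoid X receptor that pairs with many nuclear receptors, had 11.03, 10.94 and 10.87 in the LSEC fraction, against 9.65 and 8.97 in the KC fraction. Nr5a2, a nuclear receptor of bile acid and cholesterol genes, had 9.27, 9.35 and 9.27 in the LSEC fraction, against 7.86 and 7.96 in the KC fraction. Hnf4a, the central hepatocyte factor, had 11.77, 11.76 and 11.79 in the LSEC fraction, against 10.87 and 11.04 in the KC fraction, and its other probe sets differed by 0.90 and 1.18 with adjusted p of 0.000199 and 3.19e-05. Without KC array 1 its call was lost (adjusted p = 0.0539). Without KC array 1, 7 of the 20 factors were higher. Growth hormone and IGF genes were higher for 8 of 17 members and lower for 0 (median 0.48), led by the IGF-binding protein Igfbp4 (2.12), the prolactin receptor Prlr (2.09) and the growth hormone receptor Ghr (1.74).

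Of 10 iron genes, 5 were higher and 1 was lower (median 0.56). Hjv, hemojuvelin, a co-receptor upstream of hepcidin, had 11.07, 11.10 and 11.09 in the LSEC fraction, against 8.96 and 9.23 in the KC fraction, 3.98-fold. The iron importer Slc11a2 was higher by 1.23 through 1 probe set, while its other probe set differed by 0.10 (adjusted p = 0.797), and its call was lost without either KC array (highest adjusted p 0.0692). Hmox1, the heme oxygenase that breaks down heme and that KCs use on old red cells, had 11.72, 11.49 and 11.71 in the LSEC fraction, against 13.17 and 13.25 in the KC fraction, a difference of -1.57 ± 0.15. Day 3 KCs averaged 13.31. Without KC array 2, 3 of the 10 genes were higher. Respiratory chain genes differed little but in 1 direction, with a median of 0.31. Of 45 genes, 45 lay higher on all LSEC arrays than on both KC arrays, against 25.1% of all genes. Called higher were 13 (28.9%), against 9.73% of all genes. Ndufv2, a subunit of complex I, had 11.66, 11.80 and 11.71 in the LSEC fraction, against 10.90 and 10.86 in the KC fraction. Leaving out an array left 1 to 9 genes called, with 1 without KC array 2.

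**Figure D3:**
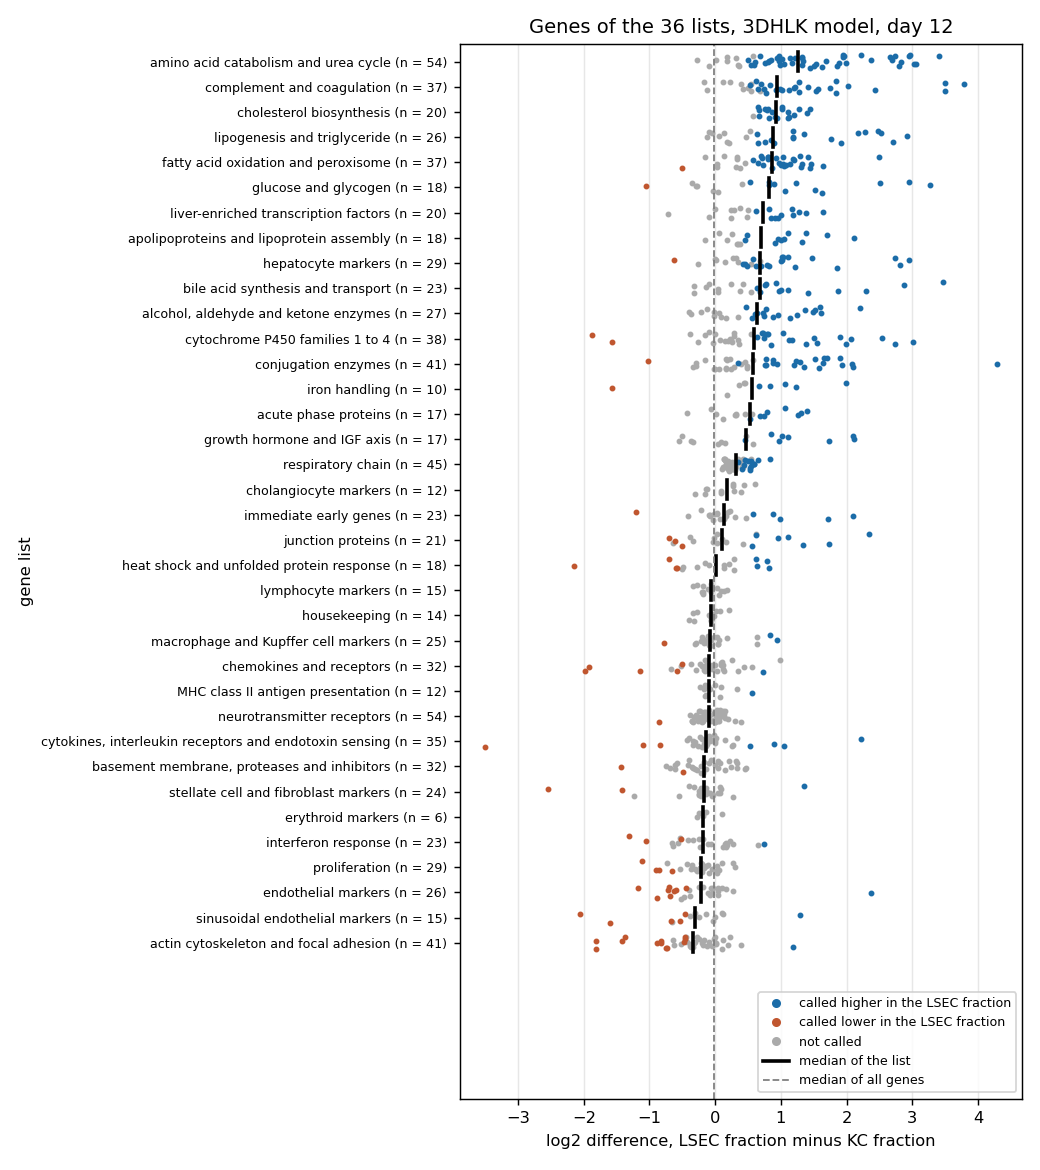
Log2 difference between the LSEC and KC fractions for each gene of 36 lists, sorted by the list median (black bar), with the median of all genes dashed. Metabolic and plasma protein lists lie to the right, from 1.27 for amino acid catabolism, and the actin list lies farthest to the left with a median of -0.34.

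The genes with the largest lower values in the LSEC fraction came from several groups. Il1rl1, the receptor for interleukin 33, had 7.57, 6.09 and 6.34 in the LSEC fraction, against 10.30 and 10.03 in the KC fraction, a difference of -3.50 ± 0.33 and 11.3-fold. Its other probe set differed by -0.53 (adjusted p = 0.103), and the hepatocytes of the model averaged 10.69. Fabp4, a fatty acid-binding protein of fat cells, macrophages and capillary endothelium, had 6.38, 6.50 and 6.04 in the LSEC fraction, against 9.49 and 9.16 in the KC fraction, 8.09-fold. Day 3 KCs averaged 10.54 and HM 5.89, and the hepatocytes of the model 8.53. Esm1, a proteoglycan secreted by endothelial cells, had 4.23, 4.66 and 4.55 in the LSEC fraction, against 7.40 and 7.03 in the KC fraction. The hepatocytes of the model averaged 8.94 for Esm1, above both fractions. Stfa2l2, of the stefin family of cysteine protease inhibitors, had 4.08, 4.13 and 4.06 in the LSEC fraction, against 5.73 and 7.03 in the KC fraction, and 8.79 as the mean of day 3 KCs. The KC arrays of Stfa2l2 were thus apart from each other by more than the LSEC arrays were.

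Havcr1, a membrane protein known as a marker of kidney injury, had 6.86, 5.40 and 6.42 in the LSEC fraction, against 8.93 and 8.49 in the KC fraction. Spetex2l2 had 9.34, 8.72 and 9.28 in the LSEC fraction, against 10.68 and 11.92 in the KC fraction, with an adjusted p of 0.0532 without KC array 2. Anxa1, a phospholipid-binding protein that limits inflammation, had 6.15, 5.56 and 5.07 in the LSEC fraction, against 7.97 and 7.24 in the KC fraction. The groups did not overlap, but the hepatocytes of the model lay far above both for Anxa1, at 12.45.

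Most endothelial markers were not called, and most of those called were lower in the LSEC fraction. Of 26 endothelial markers, 8 were lower and 1 was higher (median -0.22), and of 15 sinusoidal markers 5 were lower and 1 was higher (median -0.31). Lyve1, a hyaluronan receptor of lymphatic and sinusoidal endothelium, had 5.79, 5.94 and 5.90 in the LSEC fraction, against 7.98 and 7.91 in the KC fraction, 4.18-fold. Its other probe set differed by -2.73 (adjusted p = 1.42e-07). Day 3 KCs averaged 7.72 and HM 5.88. Tek, the angiopoietin receptor, had 5.32, 5.50 and 5.33 in the LSEC fraction, against 6.28 and 6.27 in the KC fraction, and Bmp2, a signal by which liver endothelium sets hepcidin, was lower by a difference of -1.60. The hepatocytes of the model lay above both fractions for Tek, at 7.73, 7.52 and 7.94. Their mean over the sinusoidal list was 8.04 to 8.16, against 7.44 to 7.58 on LSEC arrays and 7.86 to 7.92 on KC arrays. Over the endothelial list it was 6.28 to 6.35, against 6.46 to 6.54 on LSEC arrays and 6.69 to 6.74 on KC arrays. Esam, an endothelial junction molecule, had 6.74, 6.45 and 6.29 in the LSEC fraction, against 7.84 and 7.51 in the KC fraction. Fcgr2b differed by -0.67 ± 0.17, and was not called without KC array 1 (adjusted p = 0.119). Stab2 (-0.38, adjusted p = 0.0814), Stab1 (-0.31, 0.187), Kdr (0.04, 0.915) and Vwf (0.11, 0.829) did not pass the test, although the other probe set of Kdr, the VEGF receptor, differed by -1.55 (adjusted p = 0.0231).

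The endothelial genes that were higher were S1pr1 and Maf. S1pr1, a receptor for sphingosine 1-phosphate, had 9.10, 9.44 and 9.17 in the LSEC fraction, against 6.70 and 7.03 in the KC fraction, 5.19-fold, while its other probe set differed by -0.06 (adjusted p = 0.855). Maf, a transcription factor of sinusoidal endothelium and macrophages, was higher by 1.29, and its other probe sets differed by 1.51 (adjusted p = 5.86e-06) and 0.03 (adjusted p = 0.923). Without KC array 2, 2 endothelial and 3 sinusoidal markers were lower, without KC array 1, 5 and 2, and without LSEC array 3, 5 and 4. Leaving out genes with low means, 4 endothelial and 2 sinusoidal markers were lower.

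Macrophage markers barely separated the fractions. Of 25, 2 were higher and 1 was lower in the LSEC fraction (median -0.08, 0.03 after centring on housekeeping genes). Mpeg1, a pore-forming protein of phagocytes, had 9.51, 9.42 and 9.37 in the LSEC fraction, against 8.52 and 8.47 in the KC fraction, and Cd14, the co-receptor for endotoxin, had 11.23, 11.12 and 11.29 in the LSEC fraction, against 10.31 and 10.45 in the KC fraction. Adgre1 differed by -0.78 ± 0.23 (adjusted p = 0.0235), and was not called without LSEC array 2 or without KC array 2 (highest adjusted p 0.742). Cd68, a lysosomal glycoprotein of macrophages, had 9.50, 9.52 and 9.20 in the LSEC fraction and 9.57 and 9.40 in the KC fraction. Csf1r (-0.01, adjusted p = 0.981) and Cd163 (-0.29, 0.441) did not pass the test either. Of 12 genes of MHC class II antigen presentation, 1 (RT1-DMa) was higher, a call lost without LSEC array 1 or 3 or either KC array (highest adjusted p 0.146), and 0 were lower, with list means of 7.36 to 7.57 on LSEC arrays and 7.38 to 7.56 on KC arrays, against 10.14 to 10.39 on day 3 KCs. The genes Eif2s3y, which lies on the Y chromosome, and Xist, which is active in female cells, were looked at after values had been seen. Eif2s3y had 3.42, 3.43 and 3.49 in the LSEC fraction and 3.52 and 3.41 in the KC fraction, against a mean of 9.14 in day 3 KCs and 8.27 in the hepatocytes of the model. The paper names female rats as the source of the hepatocytes and gives no sex for the KCs. The origin of the Y-linked signal in that hepatocyte group was not tested. Through its main probe set, Xist averaged 10.38 in the LSEC fraction and 10.15 in the KC fraction, against 4.38 in day 3 KCs, and its 3 other probe sets were higher in the LSEC fraction by 0.48 to 1.17.

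Actin and adhesion genes were lower in the LSEC fraction for 12 of 41 members and higher for 1 (median -0.34). Cnn2, an actin-binding calponin, had 10.23, 9.47 and 9.23 in the LSEC fraction, against 11.44 and 11.47 in the KC fraction, 3.51-fold. Msn, moesin, which ties actin to the membrane, had 10.64, 9.92 and 9.83 in the LSEC fraction, against 12.11 and 11.76 in the KC fraction, and its other probe set differed by -2.04. The first LSEC array was the highest of its group for both genes. Filamin A (Flna, -1.41), alpha-actinin 1 (Actn1, -1.37) and vinculin (Vcl, -0.82) were also lower, and integrin alpha 1 (Itga1, 1.18) was higher. Without KC array 1, 3 of the 41 genes were lower, and without LSEC array 2 or 3, 7 were.

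Stellate cell and fibroblast markers were mostly not called, with 2 lower and 1 higher of 24 (median -0.18). Tagln, the smooth muscle protein transgelin, had 9.10, 6.78 and 6.90 in the LSEC fraction, against 10.50 and 9.77 in the KC fraction, a difference of -2.54 ± 0.52. Lox, which cross-links collagen, had 7.92, 6.51 and 7.19 in the LSEC fraction, against 8.73 and 8.53 in the KC fraction, and was not called without LSEC array 2, LSEC array 3 or either KC array (highest adjusted p 0.125). Vim, the mesenchymal filament vimentin, lay the other way, with 9.83, 9.38 and 9.64 in the LSEC fraction, against 8.21 and 8.30 in the KC fraction. Hepatocytes of the model averaged 10.95, 12.13 and 13.43 for Tagln, Lox and Vim. Col1a1 (-0.13, adjusted p = 0.944), Acta2 (0.27, 0.867) and Des (-0.14, 0.876) did not pass. Of 32 genes of basement membrane, proteases and inhibitors, 2 were lower and 0 higher (median -0.18). Ltbp1, which binds latent TGF-beta, had 6.59, 5.86 and 5.70 in the LSEC fraction, against 7.50 and 7.48 in the KC fraction. Lama5, a laminin chain, differed by -0.49, while its other probe sets differed by -0.01 and -0.02, and its call was lost without LSEC array 2, LSEC array 3 or KC array 1 (highest adjusted p 0.329).

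Junction genes were split, with 7 of 21 higher and 3 lower (median 0.11). The gap junction proteins of hepatocytes were higher. Gjb2 had 10.85, 11.17 and 10.95 in the LSEC fraction, against 8.47 and 8.83 in the KC fraction, 5.05-fold, and Gjb1 had 10.85, 10.93 and 11.02 in the LSEC fraction, against 9.58 and 8.82 in the KC fraction, with an adjusted p of 0.172 without KC array 2. The tight junction genes Ocln (-0.70) and Tjp1 (-0.50) and the desmosome gene Pkp2 (-0.62) were lower, but without KC array 1 the list held 0 lower genes.

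Among chemokines and their receptors, 5 of 32 were lower in the LSEC fraction and 1 was higher (median -0.09, 0.01 after centring on housekeeping genes). Cxcl3, an attractant of neutrophils, had 9.42, 8.23 and 8.06 in the LSEC fraction, against 10.52 and 10.59 in the KC fraction, 3.95-fold. Of its 4 other probe sets, 2 were called lower and 2 differed by -0.17 and -0.03. Ccl2, the monocyte attractant, had 8.24, 6.28 and 6.57 in the LSEC fraction, against 8.51 and 9.38 in the KC fraction, and averaged 11.21 in the hepatocytes of the model. Cxcl10, an interferon-induced attractant of T cells, was higher by 0.73, a call lost without KC array 2 (adjusted p = 0.139). Without LSEC array 3, 3 of the 32 genes were lower. Of 35 genes of cytokines, interleukin receptors and endotoxin sensing, 4 were higher and 3 lower (median -0.14). Il1rn, the interleukin 1 receptor antagonist, had 10.63, 11.10 and 11.06 in the LSEC fraction, against 8.84 and 8.59 in the KC fraction, 4.64-fold. Interleukin 33 (Il33), the ligand of Il1rl1, was higher by 0.89, so ligand and receptor differed in opposite directions. Il6r, the receptor of interleukin 6, was higher by 1.05, and Ly96, which pairs with Tlr4 to sense endotoxin, had 8.40, 8.50 and 8.33 in the LSEC fraction, against 9.41 and 9.61 in the KC fraction. Without KC array 2, 2 of the 35 genes were higher.

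Of 23 interferon-response genes, 3 were lower and 1 was higher (median -0.19). Isg15, a ubiquitin-like protein, had 9.01, 8.89 and 8.98 in the LSEC fraction, against 9.85 and 10.17 in the KC fraction. Mx2, an antiviral GTPase, had 7.61, 7.89 and 7.73 in the LSEC fraction, against 8.48 and 9.61 in the KC fraction, a call lost without KC array 2 (adjusted p = 0.0898), and its other probe set differed by -0.12. Of 29 proliferation genes, 4 were lower and 0 higher (median -0.21). Pcna, the sliding clamp of DNA replication, had 9.66, 9.49 and 9.38 in the LSEC fraction, against 10.72 and 10.52 in the KC fraction. With 1 array left out, 1 to 4 of these genes were called, with 1 without LSEC array 3 or either KC array and 2 without LSEC array 2.

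Stress genes went both ways. Of 18 genes of heat shock and the unfolded protein response, 4 were higher and 4 lower (median 0.02). Hspa1a, the inducible chaperone Hsp70, had 9.43, 9.02 and 9.31 in the LSEC fraction, against 11.48 and 11.34 in the KC fraction, a difference of -2.15 ± 0.18 and 4.45-fold. The heat shock proteins Hsph1 (-0.60) and Hspb1 (-0.58) were also lower, and Ddit3, a transcription factor of the stressed endoplasmic reticulum, by a difference of -0.70, which was not called without KC array 1 (adjusted p = 0.0542). Without that array 2 of the 18 genes were lower. The higher ones were endoplasmic reticulum proteins, namely Pdia4 (0.82), Sdf2l1 (0.79), Herpud1 (0.63) and Hsp90b1 (0.63). Of 23 immediate early genes, 5 were higher and 1 was lower (median 0.13). Fos had 10.50, 10.66 and 10.74 in the LSEC fraction, against 8.78 and 8.28 in the KC fraction, with 0.33 for its other probe set (adjusted p = 0.292), and Fosb was higher by 1.72, a call lost without KC array 2 (adjusted p = 0.154). Fosl1, another partner of Jun, had 9.63, 9.54 and 9.39 in the LSEC fraction, against 10.93 and 10.51 in the KC fraction. Without KC array 2, 2 immediate early genes were higher.

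Of 12 cholangiocyte, 15 lymphocyte, 6 erythroid and 14 housekeeping genes, 0 were called by limma, 2, 0, 0 and 4 of them in that order had an unadjusted p under 0.05, and Krt19 (0.09, adjusted p = 0.887), Epcam (0.27, 0.601) and Cd3e (-0.11, 0.862) did not pass. Of the housekeeping genes, 10 of 14 lay lower on all LSEC arrays than on both KC arrays, against 23.9% of all genes, with a median of -0.07, and 4 were called lower without day 3 KCs in the fit, with cyclic loess, with quantile normalization or with array weights. Centring on this list therefore moved all differences upward. Of 54 neurotransmitter receptors, 1 (Drd4) was lower, through 1 of its probe sets, and not without KC array 2 (adjusted p = 0.115).

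A comparison that shares no array with the one above set the LSEC fraction of the 3DHL model against day 3 KCs, so it also differs in culture and day. Here 6370 genes were higher in that LSEC fraction and 3452 were lower, 44.8% and 24.3% of 14217 genes (69.1% either way, 71.2% at an unadjusted p under 0.05). Of the calls 64.9% were higher, against 41.3% after centring on housekeeping genes and 54.3% after cyclic loess, with a median of all genes of 0.24 that centring moved to -0.18. Of the 1384 genes higher in the LSEC fraction of the 3DHLK model, 1054 (76.2%) were higher here too and 148 (10.7%) were lower. Those 1054 made up 16.5% of the genes higher here. Of the 761 genes lower in the LSEC fraction of the 3DHLK model, 264 (34.7%) were lower here and 316 (41.5%) were higher, and the 264 made up 7.65% of the genes lower here. Macrophage markers separated these groups, with 25 of 25 lower in the LSEC fraction of the 3DHL model and a median of -5.35. Among the largest differences, Rbp7 differed by 7.94, Hgd by 5.23 and Fabp4 by -4.53. Faxdc2, a fatty acid hydroxylase domain protein, had 8.96, 9.06 and 9.51 in the LSEC fraction of the 3DHLK model, against 6.03 and 5.63 in the KC fraction, but averaged 6.58 in the LSEC fraction of the 3DHL model and 8.04 in day 3 KCs. Hspa1a and Cxcl3 also changed direction, with differences of 2.45 and 2.02.

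**Figure D4:**
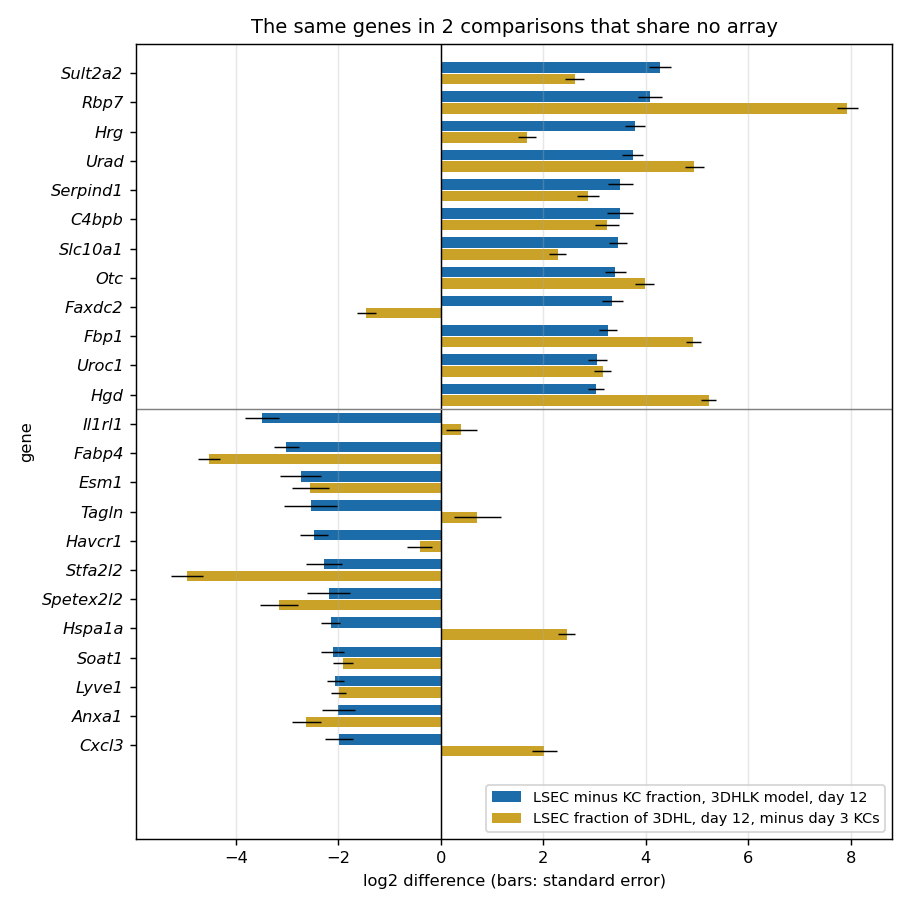
Log2 differences with standard errors for the 12 largest called genes each way, in the LSEC against the KC fraction of the 3DHLK model (blue) and in the LSEC fraction of the 3DHL model against day 3 KCs (yellow), which share no array. Of the 12 genes higher in the first, Faxdc2 lies on the other side in the second (-1.45), and of the 12 lower ones Hspa1a (2.45) and Cxcl3 (2.02) do so past the threshold.

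The hepatocytes of the same model lay below the LSEC fraction for 71.3% of the higher genes, against 56.4% of all genes. For the 1384 higher genes, the hepatocyte mean was above the LSEC fraction in 28.7%, between the fractions in 48.6% and below the KC fraction in 22.7%. Over all genes it lay between the fractions in 15.9%. It lay between the fractions for 12 of the 12 genes with the largest higher values, which were picked for a wide gap. The means of HM and of the LSEC fraction of the 3DHL model also lay between them for all 12, that of day 3 KCs for 2. The LSEC fraction of the 3DHL model lay between the fractions for 81.9% of the higher genes and 69.1% of the 761 lower genes, against 37.7% of all genes. For the lower genes, the hepatocyte mean was above the LSEC fraction in 77.8%, against 43.6% of all genes, and above the KC fraction in 42.8%, against 46.3%. These shares use the same arrays as the calls and describe levels only. Called genes have a wider gap between the fractions than most genes, which by itself raises the shares between them. HM, for example, lay between the fractions for 50.1% of the higher genes, against 17.2% of all genes. Other probe sets of called genes ran the same way in 547 of 619 cases for higher genes and in 336 of 392 cases for lower genes, with 320 and 99 of them called in that direction, and 3 and 0 called in the opposite one. They read the same RNA on the same arrays, and no such share was taken over genes not called.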

How the data were processed

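RNA was hybridized to Affymetrix rat expression arrays. Per the labels, total RNA was amplified with a whole-transcript kit for small amounts, while the paper names the standard Affymetrix labelling. The authors processed 23 arrays together with RMA in R and deposited log2 values per probe set, with no version named in the sources used here. No detection calls or intensities before normalization were used here, so signal over background could not be given, and precision is limited by how few arrays there are. LSEC array medians were 7.46 and KC array medians 7.48 to 7.49, with interquartile ranges of 2.94 to 3.08 and 2.71 to 2.94.

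Of 31099 probe sets, 57 controls, 436 naming several genes and 9780 naming none were left out, and the remaining 20826 name 14217 genes by the platform annotation, 4525 of them through more than 1 probe set. Groups were fitted in 1 model of 8 group means (lmFit, eBayes, limma 3.58.1, R 4.3.3), with p-values adjusted over all genes by Benjamini-Hochberg at 0.05. On simulated data for this comparison (14217 genes, 50 changed genes of each size), limma called 28% of those changed by 0.5 log2 units, 82% at 1, 96% at 1.5 and 98% at 2, with 4.4% false calls. The simulated noise was normal and independent, with the same spread per gene in all groups, as the test assumes. These shares therefore need not hold for the real arrays.

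The members, the 36 gene lists and the tests were chosen with earlier results of these data known. Named genes were the 12 largest called differences each way without overlap between arrays, the 2 largest each way in every list, and 24 defining markers, of which 2 have no probe set named here; uncharacterised loci were skipped, and a few list members are given besides. Alternatives were fits to other array sets, the replicate block, an added mean KC array, the mean of all probe sets, removal of genes whose mean lay under percentile 30, cyclic loess, quantile normalization, centring on 14 housekeeping genes, a trended robust fit, array weights and leaving out each array. Promoters are RefSeq sequences (GRCr8). Figures were drawn with matplotlib 3.10.9.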

Additional observations from a re-analysis of the deposited data

Results flagged for a closer look

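For 3 of the 24 genes with the largest differences, the difference between the LSEC and KC fractions of the 3DHLK model and that between the LSEC fraction of the 3DHL model and day 3 KCs were both called by limma and had opposite signs. The 3 were picked by these signs, so the gap between the values is given as a description, without a test. Faxdc2 differed by 3.34 in the first and -1.45 in the second, a gap of 4.80 ± 0.27 (SE). Hspa1a differed by -2.15 and 2.45, a gap of -4.61 ± 0.24. Cxcl3 differed by -1.98 and 2.02, a gap of -4.00 ± 0.37.

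Among control probe sets, which no comparison of genes used, the poly-A spike dap, an RNA added during sample preparation, read at least 13.5 on the 3 day 3 KC arrays and at most 4.37 on the 20 others. The spikes phe (at least 11.3, against at most 4.90) and lys (at least 8.93, against at most 5.15) did the same. The day 3 KCs therefore carried spikes that the other arrays did not show. These arrays are 1 side of the comparison with day 3 KCs, and they also entered the shared estimate of spread behind the comparison of the fractions, which without them gave 2065 higher and 1574 lower genes.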

How the results depend on the processing

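The count of genes higher in the LSEC fraction (1384) stayed within 1.5 times itself except after centring on housekeeping genes (2174, with the median of all genes at 0.09 in place of -0.02) and without KC array 2. The count of lower genes (761) was 1574 without day 3 KCs in the fit, 1222 with a mean KC array added, 1222 with cyclic loess, 1246 with quantile normalization and 1178 with array weights. With 1 array left out, 804 to 1175 genes were higher and 458 to 685 lower. A KC group left with 1 array is assumed to vary like the others. For the LSEC fraction of the 3DHL model against day 3 KCs (6370 and 3452), centring gave 4079 and 5799, the filter on low values 1884 lower genes, and leaving out an array 5953 to 6623 higher and 3176 to 3637 lower. The cause of these shifts was not tested.

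With the replicate number as a block, 1293 genes were higher and 696 lower (6329 and 3430 against day 3 KCs). The labels do not say whether arrays of the same number belong together. Deviations of same-numbered LSEC and KC arrays from their group means correlated at 0.21 and 0.08. The deviations of the 2 KC arrays mirror each other, so these values cannot show whether the arrays are paired. The block ended the calls of Pecam1, Ttr, RT1-DMa and Ube2c. Of 1574 values of the 99 called named genes under 16 alternatives, 1508 stayed called in the same direction, 66 lost the call and 0 reversed. For the 24 largest differences this was 379 of 380.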
